A study of Mus musculus with 12 samples.

Results

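The livers of 12 female mice were compared for 42 genes of the cell division cycle, out of 41743 genes listed in the deposited tables. The genes were given by name and all 42 were found in both tables. They fall into 8 genes of the G1 phase (the D and E type cyclins, the kinases Cdk4 and Cdk6, and the transcription factor E2f1), 12 genes of DNA replication (the licensing helicase, the clamp, nucleotide synthesis and origin loading) and 22 genes of G2 and mitosis. The mice were 3 to 4 months old and fell into 4 groups of 3. YAP1 KO mice lacked both copies of Yap1 through Foxa3-Cre, which acts in the foregut endoderm, the origin of hepatocytes and bile duct cells. The authors mention evidence that this Cre also acts in the developing kidney, which arises from mesoderm. Whether it acts in the other cells of the liver was not tested here. The YAP1 KO mice also carried a ROSA-stop-EYFP reporter. They were set beside WT littermates of the C57BL/6 background (hereafter WT C57BL/6). YKTH mice (YAP1 KO TAZ Heterozygote) came from a separate floxed line, lacked both copies of Yap1 and 1 copy of Wwtr1, the gene of TAZ, through the same Cre, and were set beside WT littermates of a mixed C57BL/6-FVB background (WT mixed). The loss of 1 Wwtr1 copy therefore cannot be told apart from the background and the breeding line. RNA came from whole liver, in which fewer cells of a type and less RNA per cell cannot be told apart.

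In G1, cyclin D with Cdk4 or Cdk6 and then cyclin E with its kinase phosphorylate the retinoblastoma proteins, which frees E2F factors to switch on the genes of DNA synthesis. The genes of G2 and mitosis are switched on later, largely through promoters that the DREAM and MuvB complexes bind at CHR elements next to CCAAT boxes bound by NF-Y. Hepatocytes of an uninjured adult liver rarely divide, and YAP and TAZ are coactivators known for driving growth genes, cyclin D1 among them.

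Each library summed to 1000000 TPM (transcripts per 1000000, which scales for gene length and library total), so that the read depth of each library cannot be read from the values, and 14442 to 15047 genes were above 0. Yap1 ran from 28.2 to 30.5 TPM in WT C57BL/6 and from 1.67 to 3.72 TPM in YAP1 KO mice, and from 31 to 33.2 TPM in WT mixed and 8.63 to 11.5 TPM in YKTH mice, so for Yap1 every library was on the side that its label gives. Wwtr1 was at 14.1, 11.8 and 11.5 TPM in YKTH and at 8.38, 8.23 and 7.73 TPM in WT mixed mice, and at 16.7, 13.3 and 13.7 TPM in YAP1 KO and 6.83, 6.26 and 6.28 TPM in WT C57BL/6 mice. Its level was thus not lower in the mice labelled as lacking 1 copy than in their littermates (ratio of means 1.53, beside 2.25 in YAP1 KO mice), and YKTH stands for the libraries labelled so. Changes were fitted by limma to log2(scaled TPM + 1), after division by a factor per library (1.08 to 1.23 in YAP1 KO and 0.857 to 0.908 in WT C57BL/6, 1.07 to 1.18 in YKTH and 0.858 to 0.947 in WT mixed), with Benjamini-Hochberg adjustment over all genes tested and a threshold of 0.05. Without the scaling, the median log2 fold change over all genes tested was 0.28 in place of -0.04 in YAP1 KO and 0.24 in place of -0.04 in YKTH mice, and the genes called higher and lower were 4390 and 834 in place of 2195 and 2103 in YAP1 KO and 4089 and 886 in place of 2253 and 2233 in YKTH mice. All changes are therefore relative to the bulk of the genes. The added 1 understates the fold change of the mitosis genes, which were low in WT livers.

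Most genes of mitosis were higher in both models, beside a smaller share of the replication and G1 genes, and these shares were not tested against each other. Of the 22 mitosis genes, 20 in YAP1 KO and 22 in YKTH mice were above every littermate in all 3 mice on scaled TPM. Of the 12 replication genes this was so for 6 and 4, and of the 8 G1 genes for 3 and 0. Over all 42 genes it was so for 29 in YAP1 KO mice, where 21.8% of all genes above 0 did the same, and for 26 in YKTH mice, where 21.7% did. In the other direction, 2 of the 42 in YAP1 KO mice (Ccnd2, Ccnd3) and 4 in YKTH mice (Ccnd1, Ccnd2, Ccnd3, Ccne2) were below every littermate, all of them G1 genes. The ratio of mean TPM to that of the littermates had a median of 6.55 over the mitosis genes, 2.11 over the replication genes and 1.08 over the G1 genes in YAP1 KO mice, and of 3.8, 1.72 and 0.91 in YKTH mice, where all genes tested had medians of 1.24 and 1.21.

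With no filter on low values, so that all 42 genes entered the fit, 21 rose and 0 fell in YAP1 KO mice, where 14% of all genes rose, and 20 rose and 3 fell in YKTH mice, where 14.7% rose. By role, 2 of 8 G1, 3 of 12 replication and 16 of 22 mitosis genes rose in YAP1 KO mice, and 0, 3 and 17 in YKTH mice. With at least 1 TPM required in at least 3 of the 6 libraries, 35 genes were tested in each model. In YAP1 KO mice 19 of them rose, beside 18.8% of all genes tested, and 0 fell, beside 18%. In YKTH mice 19 rose, beside 19.2%, and 3 fell, beside 19%. Of the members tested, 11 in YAP1 KO and 10 in YKTH mice had no WT mouse at 1 TPM and passed the filter only through the mutant livers, so that they had to differ. In the same way Ccne2 passed in YKTH mice through the 3 WT mixed mice alone. Fewer than 3 WT mice at 1 TPM were found for 17 members tested in YAP1 KO and 16 in YKTH mice. Among these were 15 of the 16 and 16 of the 17 mitosis genes tested, which needed mutant livers to enter the fit. The filtered p-values of these genes, given below, carry this limit. With no filter, 16 members rose in both models, which is 76.2% of the 21 of YAP1 KO and 80% of the 20 of YKTH mice, where over all genes 74.8% and 71.1% of the genes that rose in a model rose in both. They were Mcm6, Mki67, Top2a, Cdk1, Ccna2, Ccnb1, Ccnb2, Aurkb, Plk1, Cdc20, Tpx2, Ube2c, Prc1, Anln, Cenpe and Cenpf. With the filter 16 rose in both too, with Mcm2 and Mcm7 in place of Cenpe and Cenpf. The count rested on the number of mice: with each mouse left out and no filter, 12 to 24 members rose in YAP1 KO mice (12 without WT C57BL/6 replicate LM192 or LM193) and 12 to 21 in YKTH mice (12 without YKTH replicate LM250). In all 6 of these fits 11 members were called in YAP1 KO mice (Aurkb, Ccna2, Cdc20, Cdk1, Mcm6, Mki67, Plk1, Prc1, Top2a, Tpx2 and Ube2c). In YKTH mice 12 were (Aurka, Aurkb, Bub1, Ccna2, Ccnb1, Ccnb2, Ccne2, Cdk1, Cenpf, Mki67, Plk1 and Tpx2), Ccne2 as lower. Any other call was lost in at least 1 of these fits. Called in every one of the 6 fits of both models were Mki67, Cdk1, Ccna2, Aurkb, Plk1 and Tpx2. With the filter kept, 7, 8 and 11 rose without YAP1 KO replicates LM74, LM189 and LM191, where 24 were tested, and 9, 7 and 4 without YKTH replicates LM225, LM250 and LM251, where 25 were tested.

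Summed over the 22 mitosis genes, the WT C57BL/6 mice LM75, LM192 and LM193 had 16.5, 11.3 and 10.6 TPM and the YAP1 KO mice LM74, LM189 and LM191 had 101, 55.9 and 43.7 TPM. The WT mixed mice LM226, LM227 and LM230 had 14.2, 9.89 and 18.1 TPM and the YKTH mice LM225, LM250 and LM251 had 55.6, 48.8 and 50.3 TPM. The mutant groups lay above the WT groups without overlap, 5.24 times on average in YAP1 KO and 3.67 times in YKTH mice, and the 3 YKTH mice lay closer together than the 3 YAP1 KO mice (SD 3.57 and 30.3 TPM). The replication genes summed to 65.1, 61.7 and 70.1 TPM in WT C57BL/6 and to 159, 113 and 91.1 TPM in YAP1 KO mice. They summed to 83.8, 66.2 and 83.1 TPM in WT mixed and to 109, 117 and 104 TPM in YKTH mice, again without overlap on TPM, with ratios of 1.84 and 1.42. On scaled TPM, 6 of the 12 replication genes in YAP1 KO and 4 in YKTH mice were above every littermate. The G1 genes summed to 102 to 170 TPM in WT C57BL/6, 146 to 162 TPM in YAP1 KO, 163 to 182 TPM in WT mixed and 150 to 176 TPM in YKTH mice, and here the groups overlapped on TPM. All sums here are of TPM without the scaling, where all genes tested had median ratios of 1.24 and 1.21. Sums of scaled TPM were not compared. On scaled TPM, 4 G1 genes were below every littermate and 0 above in YKTH mice. In YAP1 KO mice 2 were below and 3 above. In WT C57BL/6 the G1 sum of LM75, 102 TPM, stood apart from 162 and 170 TPM, and LM75 was the lowest of its group for 7 of the 8 genes. In this order of mice, which is kept for all other values, YAP1 KO replicate LM74 was the highest of the 12 livers for 32 of the 42 members on scaled TPM, and it was the highest of the 3 YAP1 KO mice for all 22 mitosis genes on TPM. Without it, and with no filter, 17 members rose in YAP1 KO mice in place of 21.

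**Figure D1:**
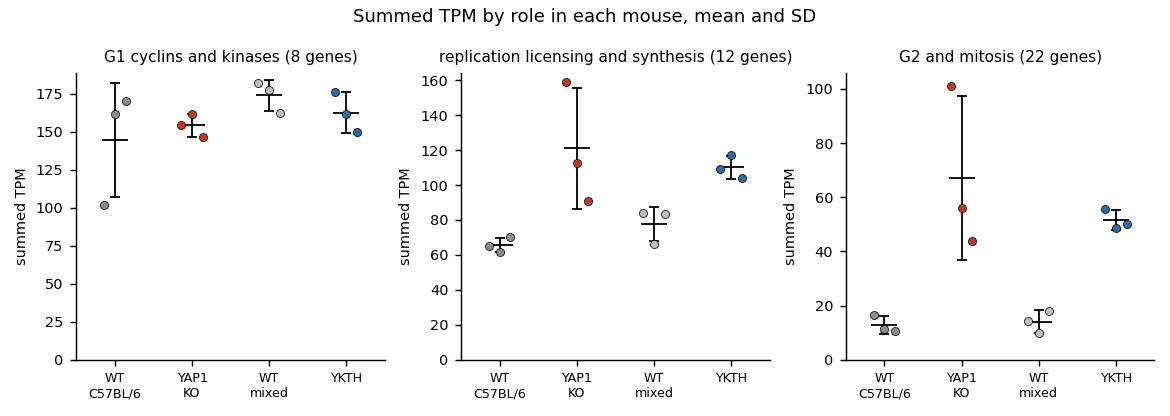
Summed TPM (y axis) of the members of each role in each mouse (points), by group (x axis), with the mean and SD of 3 mice as lines. The mitosis sums of the mutant livers, from 43.7 to 101 TPM, lie above all WT sums, which end at 18.1 TPM, while the G1 sums overlap. TPM is shown here without the scaling used in the fits.

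In the 6 WT livers, the G1 genes had a median of 4.26 TPM, above the genes of the other roles. Cyclin D1, which starts the passage through G1, was the highest of the 42 with a mean of 85.1 TPM, and its range reached from 33.2 TPM in WT C57BL/6 replicate LM75 to 111 TPM in WT mixed replicate LM226. Pcna, the sliding clamp of the replicative polymerases that also serves in DNA repair, followed with 38.5 TPM, and then Cdk4 with 33.7 and Ccnd3 with 28 TPM, whose ranges over the 6 mice (30.3 to 37.3 and 25.1 to 31.5 TPM) overlapped. The ranges of the lowest G1 genes, Ccne1 with a mean of 0.775 and Ccne2 with 1.22 TPM, overlapped too. The replication genes had a median of 2.87 TPM, and Cdc6, which loads the helicase onto origins, was the lowest of them with 0.157 TPM. The mitosis genes had a median of 0.505 TPM, and 19 of the 22 had a mean under 1 TPM, the 3 above it being Aurka (1.61 TPM), Cdc20 (1.33 TPM) and Ccnb2 (1.27 TPM). Bub1 was lowest with 0.0822 TPM and is listed at 0 in WT mixed replicate LM227. Between the WT groups, 0 of 23 members tested passed limma, where 0.216% of all genes passed (24 of 11126) and 648 had an unadjusted p under 0.05, against 0 of the 23 members.

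**Figure D2:**
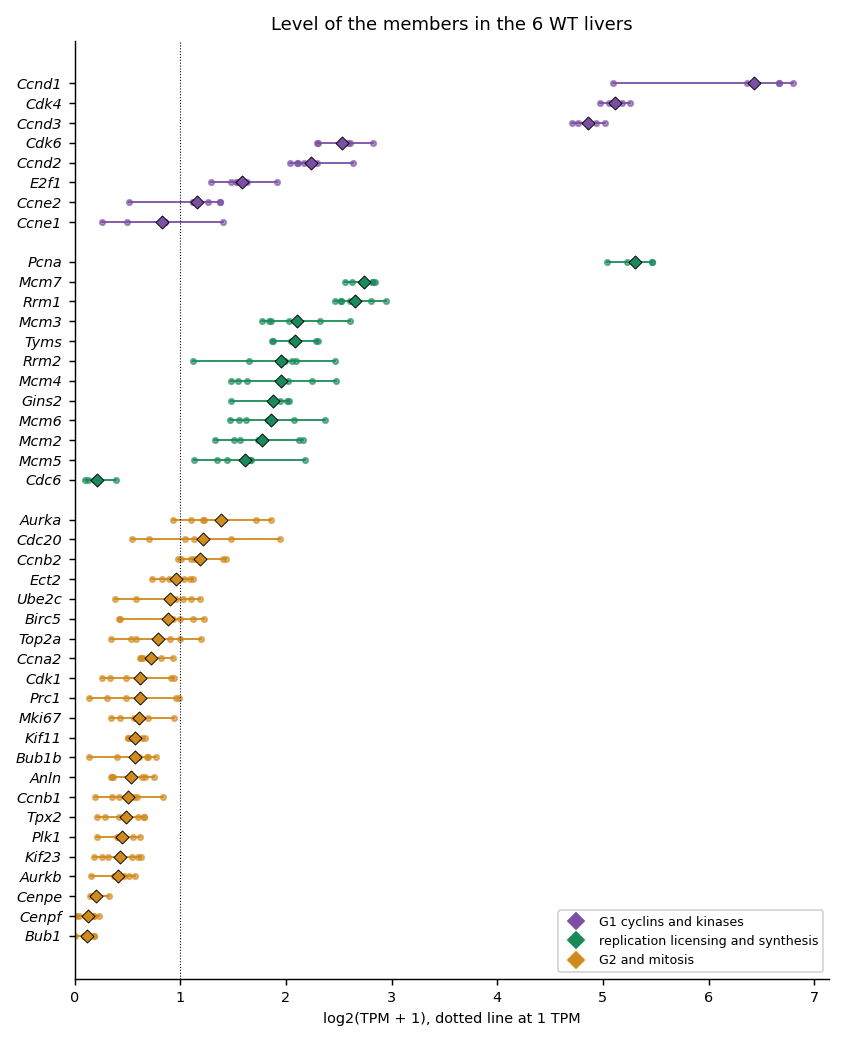
Level of each member in the 6 WT livers as log2(TPM + 1) on the x axis (small points, mice; lines, range; diamonds, mean of TPM), ordered by mean within each role. The dotted line marks 1 TPM, which 3 of the 22 mitosis genes and 11 of the 12 replication genes exceeded on average.

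A promoter was found in RefSeq (GRCm38.p6) for 34 of the 42 members: 5 G1, 10 replication and 19 mitosis genes. In the 250 bases before the start, read on both strands, a CHR element (TTTGAA or TTCGAA) was held by 9 of the 19 mitosis, 2 of the 10 replication and 0 of the 5 G1 promoters, beside 17.4% of 27025 promoters of all genes. A CCAAT box (CCAAT) was held by 17, 8 and 0 of them, beside 34.5%, and an E2F word (TTTCCCGC, TTTCGCGC, TTTGCCGC or TTTGGCGC) by 1, 4 and 0, beside 1.91%. CHR and CCAAT box together were held by 9, 2 and 0, beside 6.21%. Overlapping words were each read as a match, and a match is a description of the letters and not a site. Only the first listed start of each gene was used. For E2f1, Cdk6, Cdc6 and Mcm7 the bases searched lie wholly inside the deposited span of the gene. For some other members a part of them does. Among these are Cdk1, Cdc20 and Ccne1, where the bases nearest the start lie inside the span. They hold the CHR word of Cdk1 at 15 bases and the CCAAT box of Cdc20 at 8 bases. The bases after the start were found near the head of a GENCODE transcript for 28 of the 34 members. The counts, also the 0 of 5 G1 promoters, hold for these starts only. The last 160 bases before the start are given for 5 members: Cdk1, Cdc20 and Mki67 as mitosis genes that rose in both models and hold CHR and CCAAT words, Mcm6 as the replication gene with the highest ratios and E2F words, and Ccne1 as a G1 gene that rose in YAP1 KO mice and holds none of the words. Capitals mark the matches on either strand, and all 5 genes lie on the minus strand, at chr10:69352913-69353072 (Cdk1), chr4:118437344-118437503 (Cdc20), chr7:135716380-135716539 (Mki67), chr1:128359706-128359865 (Mcm6) and chr7:38107491-38107650 (Ccne1).
Cdk1: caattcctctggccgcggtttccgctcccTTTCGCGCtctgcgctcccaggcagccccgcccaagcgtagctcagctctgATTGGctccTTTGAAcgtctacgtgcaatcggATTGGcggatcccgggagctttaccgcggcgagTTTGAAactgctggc
Cdc20: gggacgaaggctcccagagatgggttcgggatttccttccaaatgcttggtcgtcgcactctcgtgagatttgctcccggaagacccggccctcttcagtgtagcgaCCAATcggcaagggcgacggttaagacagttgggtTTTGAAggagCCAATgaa
Mki67: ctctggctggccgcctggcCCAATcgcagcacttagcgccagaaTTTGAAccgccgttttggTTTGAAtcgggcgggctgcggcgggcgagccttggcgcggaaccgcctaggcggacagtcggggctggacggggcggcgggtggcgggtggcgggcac
Mcm6: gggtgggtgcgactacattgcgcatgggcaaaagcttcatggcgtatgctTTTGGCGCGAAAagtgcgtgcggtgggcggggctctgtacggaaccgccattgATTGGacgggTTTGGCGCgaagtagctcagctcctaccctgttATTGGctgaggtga
Ccne1: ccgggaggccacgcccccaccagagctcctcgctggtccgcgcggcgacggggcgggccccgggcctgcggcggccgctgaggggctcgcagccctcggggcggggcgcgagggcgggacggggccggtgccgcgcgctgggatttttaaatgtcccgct
In Cdk1 the CHR words begin 71 and 15 bases before the start, each after an inverted CCAAT box, at 80 and 48 bases, and an E2F word stands at 131 bases. In Cdc20 a CHR word at 18 bases lies between CCAAT boxes at 53 and 8 bases. In Mki67 the CHR words lie at 116 and 98 bases, and in Mcm6 the E2F words at 110, 106 and 47 bases, of which the first 2 overlap on opposite strands. Plk1 (a kinase of mitotic entry) and Ccnb1 rose in both models too and hold CCAAT boxes (Plk1 at 14 bases, Ccnb1 at 99 and 67 bases) but no CHR word in the window.

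Among the G1 genes, cyclin D1 (Ccnd1, ENSMUSG00000070348, chromosome 7 from 144929931 to 144939925) had 33.2, 84.5 and 100.4 TPM in WT C57BL/6 and 56.8, 82.1 and 73.3 TPM in YAP1 KO mice, which overlapped (limma adjusted p = 0.61). This rested on LM75: without it, Ccnd1 fell in YAP1 KO mice by 0.72 on the log2 scale (SE 0.21, limma adjusted p = 0.035), a call that was not made when the filter was dropped too. It had 111, 101 and 81.1 TPM in WT mixed and 92.5, 89 and 73.8 TPM in YKTH mice, where it fell on the scaled values (log2 fold change -0.51, SE 0.12, limma adjusted p = 0.011). TPM itself overlapped there, the ratio of means was 0.872, and without scaling the change was -0.19 (limma adjusted p = 0.31), so that the fall is one relative to the bulk of the genes. It was also lost under quantile normalization (limma adjusted p = 0.0996), with all 12 libraries in the fit (0.21) and without YKTH replicate LM251 (0.055). Cyclin D3 (Ccnd3), at 25.1, 29.7 and 31.5 TPM in WT mixed and 24.2, 24.7 and 26.4 TPM in YKTH mice, fell likewise by 0.50 on the log2 scale (limma adjusted p = 0.024). The call was lost without scaling (-0.19, limma adjusted p = 0.24) and without WT mixed replicates LM227 and LM230 or YKTH replicates LM225 and LM250 (limma adjusted p = 0.060 to 0.073). In YAP1 KO mice Ccnd3 had 32.2, 30.4 and 24.5 TPM beside 26.1, 28 and 27.9 TPM (limma adjusted p = 0.090). Cyclin D2 (Ccnd2) had 3.1, 5.21 and 3.33 TPM beside 3.87, 3.07 and 2.35 TPM in YAP1 KO mice, and 3.91, 3.31 and 3.51 TPM beside 2.99, 3.28 and 3.89 TPM in YKTH mice, and passed in neither (limma adjusted p = 0.063 and 0.11).

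The E type cyclins drive the entry into S phase. Ccne1 (ENSMUSG00000002068, chromosome 7 from 38097984 to 38107534) had 0.196, 0.41 and 0.779 TPM in WT C57BL/6 and 2.08, 1.23 and 2.24 TPM in YAP1 KO mice. The 3 YAP1 KO values all exceeded those of the littermates (exact permutation, two-sided, p = 0.1, the smallest that 3 against 3 allow), and Ccne1 rose by 0.79 on the log2 scale (SE 0.22, limma adjusted p = 0.022). The call was lost without WT C57BL/6 replicates LM75 and LM192 (limma adjusted p = 0.065 and 0.064) and under quantile normalization (0.084). Ccne1 passed the filter only through the YAP1 KO mice. With no filter, its YAP1 KO call held in 2 of the 6 fits that left out 1 mouse (limma adjusted p up to 0.086). In the mixed set Ccne1 had 0.812, 0.803 and 1.65 TPM in WT and 1.08, 0.667 and 0.93 TPM in YKTH mice, under the filter for a test and overlapping. For Ccne2, 0.428, 1.59 and 1.17 TPM in WT C57BL/6 and 1.23, 0.69 and 1.17 TPM in YAP1 KO mice overlapped (limma adjusted p = 0.62), while 0.659, 0.522 and 0.239 TPM in YKTH mice lay below 1.4, 1.17 and 1.59 TPM in WT mixed. It fell by 0.85 on the log2 scale there (SE 0.17, limma adjusted p = 0.0048). It passed the filter only through the WT mixed mice, but with no filter it was called in all 6 fits that left out 1 mouse (limma adjusted p up to 0.017). The log2 fold change in YAP1 KO minus that in YKTH mice was 1.08 (SE 0.31) for Ccne1 and 0.67 (SE 0.30) for Ccne2, and neither difference passed (limma adjusted p = 0.77 and 0.999, unadjusted p = 0.0045 and 0.046).

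E2f1, the transcription factor that the retinoblastoma proteins hold in check, had 1.45, 1.88 and 1.8 TPM in WT C57BL/6 and 5.28, 6.53 and 3.41 TPM in YAP1 KO mice. It rose without overlap (log2 fold change 0.87, SE 0.20, limma adjusted p = 0.012), and with no filter the call was lost when LM75, LM192, LM193 or LM74 was left out (limma adjusted p up to 0.070). In the mixed set it had 2.77, 1.93 and 2.11 TPM in WT and 2.38, 3.6 and 3.11 TPM in YKTH mice, which overlapped (limma adjusted p = 0.77). The difference between the models was 0.80 (SE 0.27, unadjusted p = 0.012, limma adjusted p = 0.91). The kinases that cyclin D activates did not pass in either model: Cdk4 had 33.1, 35.3 and 30.3 TPM beside 45.1, 30.9 and 32.8 TPM, and 32.3, 34.1 and 37.3 TPM beside 45.4, 33.4 and 34 TPM, with overlap in both sets (limma adjusted p = 0.17 and 0.25). Cdk6 had 3.93, 4.99 and 4.75 TPM beside 8.07, 6.86 and 6.68 TPM in YAP1 KO mice and 5.09, 6.1 and 3.91 TPM beside 7.25, 6.87 and 7.33 TPM in YKTH mice, above the littermates on TPM in both sets, and on scaled TPM in the YAP1 KO set alone (limma adjusted p = 0.13 and 0.39). Of the G1 genes that did not pass, the sign of the change turned without scaling for Ccnd1, Ccnd3, Ccne2 and Cdk4 in YAP1 KO mice and for Cdk4 in YKTH mice, and under quantile normalization for E2f1 in YKTH mice.

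**Figure D3:**
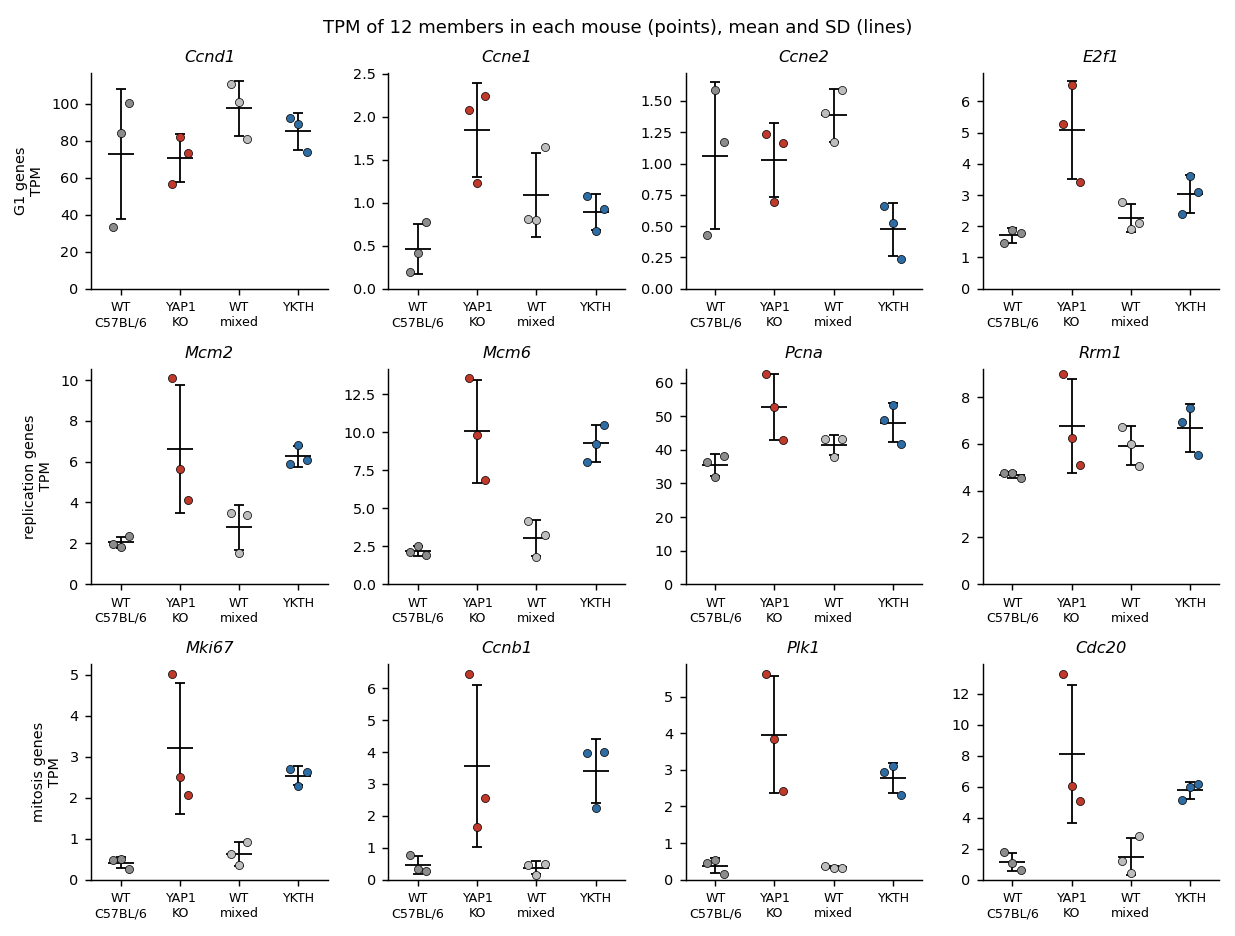
TPM (y axes, each from 0) of 4 G1, 4 replication and 4 mitosis genes in each mouse (points), by group (x axes), with the mean and SD of 3 mice as lines. In the mitosis row the mutant groups lie above their WT groups without overlap, and LM74, the leftmost YAP1 KO point, is the highest of the 12 in all 4 panels.

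Among the replication genes, 3 of the licensing helicase, Mcm2, Mcm6 and Mcm7, rose in both models. Mcm6 (ENSMUSG00000026355, chromosome 1 from 128331590 to 128359664), whose promoter is shown above with its E2F words, had 2.09, 2.55 and 1.94 TPM in WT C57BL/6 and 13.6, 9.81 and 6.84 TPM in YAP1 KO mice. It had 4.16, 1.76 and 3.23 TPM in WT mixed and 8.07, 9.25 and 10.5 TPM in YKTH mice. The groups did not overlap, the ratios of mean TPM of 4.6 and 3.04 were the highest of the 12, and Mcm6 rose by 1.47 (SE 0.20, limma adjusted p = 0.00091) and 1.12 (SE 0.23, limma adjusted p = 0.0058) on the log2 scale. With no filter the YKTH call was lost when LM250 or LM251 was left out (limma adjusted p up to 0.064). Mcm2 had 1.95, 1.84 and 2.34 TPM beside 10.1, 5.64 and 4.11 TPM in YAP1 KO mice and 3.48, 1.51 and 3.36 TPM beside 5.87, 6.83 and 6.08 TPM in YKTH mice. It rose by 0.97 and 0.73 (limma adjusted p = 0.014 and 0.034), and the second call was lost without YKTH replicates LM250 and LM251 (limma adjusted p = 0.11 and 0.092) and with no filter (0.068). The first call of Mcm2 held, with no filter, in 2 of the 6 fits that left out 1 mouse. Mcm7 had 4.89, 5.18 and 6.18 TPM beside 13.6, 7.94 and 10.4 TPM and 6.03, 6.09 and 5.58 TPM beside 9.66, 10.1 and 11.9 TPM. It rose by 0.51 and 0.46 (limma adjusted p = 0.038 and 0.024) without overlap, and its calls were the least firm, since leaving out any 1 of 5 mice in the YAP1 KO set (all but LM189) and any 1 of 4 in the YKTH set (LM226, LM230, LM250 or LM251) took the limma adjusted p over 0.05, up to 0.12 and 0.089. With no filter the YAP1 KO call was not made (limma adjusted p = 0.069). Mcm3 had 3.09, 2.62 and 2.58 TPM beside 10.3, 6.13 and 5.3 TPM and rose in YAP1 KO mice by 0.79 (limma adjusted p = 0.014). In the mixed set it had 4.01, 2.43 and 5.1 TPM in WT and 5.52, 6.73 and 5.25 TPM in YKTH mice (limma adjusted p = 0.37). The YAP1 KO call of Mcm3 held, with no filter, in 2 of the 6 fits that left out 1 mouse. Mcm4 and Mcm5 passed in neither model: Mcm4 had 1.78, 2.1 and 3.06 TPM beside 6.73, 4.56 and 2.73 TPM in YAP1 KO mice, and Mcm5 had 1.19, 2.18 and 1.54 TPM beside 6.8, 4.28 and 2.4 TPM (limma adjusted p = 0.19 and 0.062). In the YKTH set Mcm4 had 3.75, 1.92 and 4.54 TPM beside 5.14, 4.66 and 3.94 TPM, and Mcm5 had 2.15, 1.72 and 3.54 TPM beside 3.58, 5.11 and 3.61 TPM (limma adjusted p = 0.69 and 0.28).

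Gins2, a subunit of the GINS complex that joins the helicase at the fork, had 1.79, 2.84 and 3.03 TPM in WT mixed and 5.51, 5.42 and 6.99 TPM in YKTH mice and rose there (log2 fold change 0.73, SE 0.20, limma adjusted p = 0.021), a call lost without YKTH replicate LM251 (0.60, limma adjusted p = 0.086). In the C57BL/6 set it had 2.63, 2.64 and 3.08 TPM in WT and 9.06, 4.22 and 2.76 TPM in YAP1 KO mice, with overlap (limma adjusted p = 0.39). The YKTH call of Gins2 was also lost under 2 of the 7 alternative settings with all mice. With no filter it held in only 1 of the 6 fits that left out 1 mouse. The clamp and the enzymes of nucleotide supply did not pass in either model. Pcna had 36.4, 31.9 and 38.3 TPM beside 62.7, 52.7 and 43 TPM in YAP1 KO mice and 43.2, 38 and 43.3 TPM beside 49.1, 53.3 and 41.9 TPM in YKTH mice (limma adjusted p = 0.31 and 0.48). The large and small subunits of ribonucleotide reductase, Rrm1 and Rrm2, and thymidylate synthase, Tyms, had ratios of mean TPM of 1.45, 2.21 and 1.66 in YAP1 KO mice and of 1.12, 1.86 and 0.989 in YKTH mice (limma adjusted p from 0.12 to 0.60 and from 0.17 to 0.46). Rrm1 had 4.73, 4.74 and 4.53 TPM beside 8.99, 6.23 and 5.1 TPM, and 6.72, 5.99 and 5.07 TPM beside 6.92, 7.53 and 5.53 TPM. Rrm2 had 2.97, 3.16 and 3.28 TPM beside 10.5, 6.53 and 3.8 TPM, and 4.52, 1.18 and 2.14 TPM beside 5.59, 3.91 and 5.08 TPM. Tyms had 3.26, 2.65 and 3.12 TPM beside 6.1, 4.48 and 4.37 TPM, and 3.86, 2.68 and 3.94 TPM beside 3.93, 3.47 and 2.96 TPM. All 3 were above the littermates on TPM in YAP1 KO mice and overlapped with them in YKTH mice. In YKTH mice the sign of the change turned without scaling for Pcna and Rrm1 and under quantile normalization for Pcna and Mcm4. Cdc6 was under the filter in both models, at 0.0909, 0.169 and 0.135 TPM beside 0.709, 0.293 and 0.339 TPM in YAP1 KO mice and at 0.165, 0.0698 and 0.31 TPM beside 0.394, 0.594 and 0.254 TPM in YKTH mice. With no filter it passed in neither (limma adjusted p = 0.082 and 0.28).

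Among the mitosis genes, those of mitotic entry rose in both models. Cdk1 (ENSMUSG00000019942, chromosome 10 from 69335146 to 69352938), the kinase that triggers mitosis, had 0.881, 0.398 and 0.2 TPM in WT C57BL/6 and 3.09, 2.35 and 2 TPM in YAP1 KO mice. In the mixed set it had 0.547, 0.258 and 0.916 TPM in WT and 2.15, 2.11 and 2.08 TPM in YKTH mice. The log2 fold changes were 1.05 (SE 0.21, limma adjusted p = 0.0066) and 0.84 (SE 0.19, limma adjusted p = 0.0096). It passed the filter only through the mutant mice, but with no filter it was called in all 6 fits of each model that left out 1 mouse (limma adjusted p up to 0.046 and 0.048). Cyclin B1 (Ccnb1) had 0.779, 0.341 and 0.273 TPM beside 6.44, 1.66 and 2.57 TPM in YAP1 KO mice, and 0.475, 0.141 and 0.5 TPM beside 3.97, 2.25 and 3.99 TPM in YKTH mice. It rose by 1.31 (limma adjusted p = 0.015) and 1.5 (limma adjusted p = 0.0011), the first of these lost without WT C57BL/6 replicate LM193 (limma adjusted p = 0.054). With no filter the YAP1 KO call held in 3 of the 6 fits that left out 1 mouse. Cyclin B2 (Ccnb2) rose by 1.22 and 1.17 (limma adjusted p = 0.0055 and 0.0010), with 1.64, 0.97 and 1.18 TPM beside 8.14, 4.92 and 3.48 TPM, and 1, 1.14 and 1.7 TPM beside 5.34, 4.6 and 4.91 TPM. Its YAP1 KO call held in 4 of the 6 fits with no filter that left out 1 mouse. Cyclin A2 (Ccna2), which serves S phase and G2, rose by 1.37 and 0.97 (limma adjusted p = 0.0028 and 0.0023), with 0.566, 0.76 and 0.531 TPM beside 6.42, 3.37 and 2.53 TPM, and 0.619, 0.902 and 0.544 TPM beside 2.51, 2.57 and 3.16 TPM. In all 4 genes the mutant mice lay above every WT mouse of their set.

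Of the mitotic kinases and the anaphase machinery, Plk1, Aurkb, Cdc20 and Ube2c rose in both models. Plk1 (ENSMUSG00000030867, chromosome 7 from 122159439 to 122169873), a kinase of mitotic entry and spindle assembly, had 0.467, 0.531 and 0.155 TPM in WT C57BL/6 and 5.61, 3.85 and 2.42 TPM in YAP1 KO mice. It had 0.376, 0.319 and 0.33 TPM in WT mixed and 2.94, 3.09 and 2.32 TPM in YKTH mice. The ratios of mean TPM were 10.3 and 8.14, and the log2 fold changes were 1.61 (SE 0.23, limma adjusted p = 0.0013) and 1.33 (SE 0.14, limma adjusted p = 0.00028), and with no filter it was called whichever mouse was left out (limma adjusted p up to 0.017 and 0.0032). Cdc20 (ENSMUSG00000006398, chromosome 4 from 118432901 to 118437352), which activates the anaphase-promoting complex, had 1.78, 1.07 and 0.632 TPM beside 13.3, 6.05 and 5.11 TPM in YAP1 KO mice and 1.19, 0.456 and 2.84 TPM beside 5.15, 5.99 and 6.18 TPM in YKTH mice. It rose by 1.75 (SE 0.31, limma adjusted p = 0.0034) and 1.33 (SE 0.33, limma adjusted p = 0.015), and the second call was lost without WT mixed replicate LM226 (limma adjusted p = 0.0503) and YKTH replicate LM251 (0.056). With no filter the second call held in only 1 of the 6 fits that left out 1 mouse. Ube2c, the ubiquitin-conjugating enzyme of that complex, rose by 1.19 and 0.80 (limma adjusted p = 0.0080 and 0.013), the second call lost without YKTH replicate LM251 (limma adjusted p = 0.062), with 1.14, 0.938 and 0.305 TPM beside 5.48, 3.36 and 2.62 TPM, and 1.27, 0.494 and 1.04 TPM beside 2.48, 2.66 and 3.28 TPM. Aurora B (Aurkb), of the chromosomal passenger complex, rose by 1.29 and 0.90 (limma adjusted p = 0.0021 and 0.0017), with 0.292, 0.38 and 0.116 TPM beside 3.84, 1.88 and 1.96 TPM, and 0.483, 0.299 and 0.425 TPM beside 1.96, 1.89 and 1.82 TPM. Aurora A (Aurka), of the centrosomes, had 2.29, 1.15 and 2.63 TPM beside 5.31, 4.12 and 3.73 TPM in YAP1 KO mice, without overlap but not past the threshold (limma adjusted p = 0.072). In YKTH mice it had 3.33, 3.45 and 3.02 TPM beside 1.34, 1.32 and 0.909 TPM and rose by 0.76 (limma adjusted p = 0.0036).

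Genes of the chromosomes and of the dividing cell rose too. Mki67 (ENSMUSG00000031004, chromosome 7 from 135689784 to 135716361), the gene of the Ki-67 antigen of cycling cells, had 0.476, 0.506 and 0.27 TPM in WT C57BL/6 and 5.02, 2.51 and 2.07 TPM in YAP1 KO mice. It had 0.622, 0.348 and 0.918 TPM in WT mixed and 2.71, 2.29 and 2.62 TPM in YKTH mice, and rose by 1.32 (SE 0.23, limma adjusted p = 0.0031) and 0.96 (SE 0.18, limma adjusted p = 0.0037), and with no filter it was called whichever mouse was left out (limma adjusted p up to 0.030 and 0.027). Top2a, the topoisomerase that untangles sister chromatids, had 0.874, 0.447 and 0.499 TPM beside 7.87, 3.96 and 2.86 TPM in YAP1 KO mice and 0.995, 0.268 and 1.29 TPM beside 4.37, 2.63 and 2.46 TPM in YKTH mice. It rose by 1.57 and 0.99 (limma adjusted p = 0.0028 and 0.017), the second call lost without YKTH replicate LM225 (limma adjusted p = 0.052). With no filter the YKTH call held in only 1 of the 6 fits that left out 1 mouse. The spindle gene Tpx2 rose by 1.25 and 0.98 (limma adjusted p = 0.0055 and 0.0028), with 0.575, 0.219 and 0.337 TPM beside 4.63, 2.28 and 1.76 TPM, and 0.514, 0.161 and 0.571 TPM beside 2.17, 2.05 and 1.98 TPM. Prc1, which bundles the midzone microtubules, had the highest ratio in YAP1 KO mice, 11.7, with 0.524, 0.396 and 0.0975 TPM beside 5.69, 3.78 and 2.45 TPM. It rose by 1.66 there and by 0.97 in YKTH mice (limma adjusted p = 0.0013 and 0.015), where it had 0.95, 0.235 and 0.983 TPM beside 3.82, 2.67 and 1.94 TPM. With no filter the YKTH call held in 3 of the 6 fits that left out 1 mouse. Anln, a scaffold of the contractile ring, rose by 0.81 and 0.51 (limma adjusted p = 0.025 and 0.049), and the YAP1 KO call was lost when LM192 or LM193 was left out (limma adjusted p = 0.078 and 0.080), the YKTH call when LM226 or LM227 was (0.13 and 0.082). It had 0.589, 0.285 and 0.281 TPM beside 2.86, 1.52 and 1.06 TPM, and 0.268, 0.555 and 0.686 TPM beside 1.28, 1.43 and 1.34 TPM. With no filter the YAP1 KO call of Anln held in 3 and its YKTH call in 1 of the 6 fits that left out 1 mouse. Survivin (Birc5), of the chromosomal passenger complex, rose in YKTH mice by 0.78 (limma adjusted p = 0.034), with 0.347, 0.995 and 1.34 TPM beside 2.21, 2.77 and 2.92 TPM, and had 1.17, 0.904 and 0.333 TPM beside 3.06, 1.68 and 1.63 TPM in YAP1 KO mice (limma adjusted p = 0.090). The YKTH call was lost without any 1 of WT mixed replicates LM226 and LM227 and YKTH replicates LM250 and LM251 (limma adjusted p = 0.057 to 0.12). It was not made with no filter (limma adjusted p = 0.056).

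The other 7 mitosis genes did not pass in the filtered fit or were not in it. Ect2, which starts cleavage furrow formation, had 0.856, 0.771 and 1.17 TPM beside 4.38, 3.06 and 1.45 TPM in YAP1 KO mice and 1.14, 0.657 and 1.05 TPM beside 2.35, 1.6 and 1.67 TPM in YKTH mice (limma adjusted p = 0.051 and 0.10). The checkpoint kinase genes Bub1 and Bub1b, the kinetochore genes Cenpe and Cenpf and the kinesins Kif11 and Kif23 ran from 0 to 0.71 TPM over the 6 WT mice and from 0.156 to 2.9 TPM over the 6 mutant mice. On TPM every one of them was above its littermates in all 3 mice of both models. The filter left 5 of these out in both models and Bub1b in YAP1 KO mice. With no filter, Cenpe rose by 0.56 and 0.40 (limma adjusted p = 0.018 and 0.014) and Cenpf by 0.54 and 0.43 (limma adjusted p = 0.018 and 0.0072) in YAP1 KO and YKTH mice, Kif23 by 0.60 in YAP1 KO mice (limma adjusted p = 0.019) and Bub1 by 0.72 in YKTH mice (limma adjusted p = 0.0079). Kif11 (0.45, 0.418 and 0.423 TPM beside 2.9, 1.7 and 0.773 TPM, and 0.49, 0.557 and 0.581 TPM beside 1.42, 1.09 and 0.819 TPM) passed in neither. Bub1b, with 0.529, 0.318 and 0.71 TPM beside 2.39, 0.927 and 1.54 TPM, and 0.612, 0.0955 and 0.622 TPM beside 1.47, 1.14 and 1.35 TPM, passed in neither as well.

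**Figure D4:**
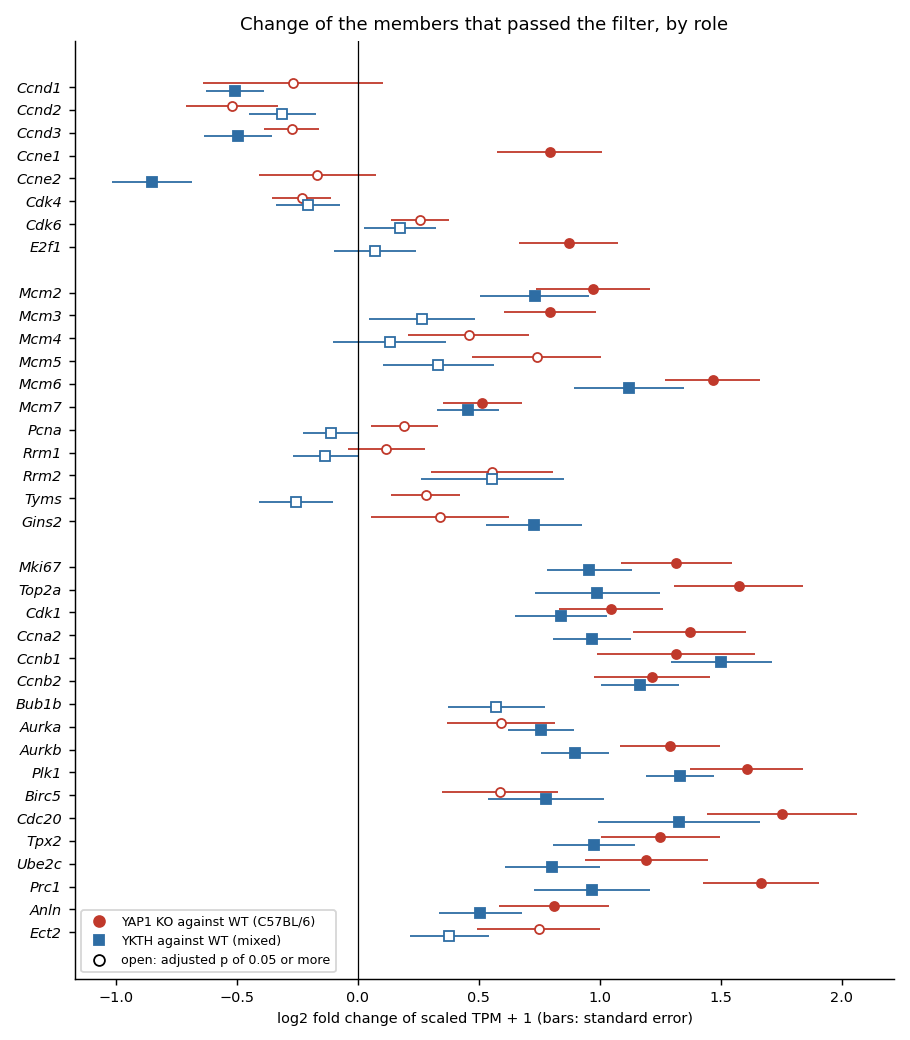
Log2 fold change of scaled TPM + 1 (x axis) with its SE for the members that passed the filter in at least 1 model, by role (circles, YAP1 KO against WT C57BL/6; squares, YKTH against WT mixed; filled, limma adjusted p under 0.05). All mitosis genes lie to the right of 0, while cyclins D1 to D3 and E2 lie to the left, where the sign of Ccnd1, Ccnd3 and Ccne2 in YAP1 KO mice turned without scaling.

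The question whether the added loss of 1 Wwtr1 copy went with another response was asked of the difference between the models over all 12 livers. Of the 38 members tested, 0 passed, where 0.0658% of all genes did (8 of 12159), and 4 members had an unadjusted p under 0.05 (Ccne1, Ccne2, E2f1 and Tyms) against 557 of all genes. The signed log2 fold change in YAP1 KO minus that in YKTH mice was above 0 for 31 of the 38, with a median of 0.30, beside 0.01 over all genes. This counts genes with a larger positive value in YAP1 KO mice and also genes such as Ccnd1 and Ccne2 that were less below their littermates there. For the 19 mitosis genes tested it was 0.37 at the median, and none of them reached an unadjusted p of 0.05. For Prc1 the difference was 0.71 (SE 0.36), for Top2a 0.59 (SE 0.40) and for Ccnb1 -0.18 (SE 0.42), all with a limma adjusted p of 0.999. A p over the threshold does not show that the models responded alike, and the difference shares its mice with both comparisons above.

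The counting by the authors could have shared reads between some members and other genes, and no use of strand is given in the sources used here. Over their length, 10 members overlap a gene on the opposite strand that is above 0 in the tables (Ccna2, Ccnd1, Ccnd3, Ccne2, Cdc20, Cdk4, Gins2, Mcm7, Prc1 and Ube2c). In Cdk4 the neighbour was Tspan31 at up to 309 TPM, over 641 bases, and in Mcm7 Cops6 at up to 122 TPM, over 64 bases. For Prc1 and Gins2 the overlap covered the whole deposited span of the gene. The neighbours were Rccd1 at up to 2.08 TPM, over 21810 bases of Prc1, and Gm20388 at up to 12 TPM, over 10672 bases of Gins2. In transcripts of GENCODE M21, 10 members have a stretch of at least 30% of their longest transcript in common with another gene at 90% identity or more. For Ccnb1, Cdc20, Cdc6, Kif11, Mcm4, Mcm7, Pcna and Plk1 these are pseudogenes without a row in the tables, and for Cdk4 and Gins2 they are the overlapping neighbours Tspan31 and Gse1. The values of these members are uncertain to that extent.

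Beyond the 42, lists of other cell cycle genes are read beside the 14% and 14.7% of all genes that rose with no filter. Of 59 other mitosis genes, 34 rose and 2 fell in YAP1 KO mice and 29 rose and 2 fell in YKTH mice with no filter, among them the centrosomal kinase Nek2, which rose by 1.95 and 1.51 in the filtered fit (limma adjusted p = 0.00092 and 0.0045). Of 45 other replication genes, 6 rose and 3 fell in YAP1 KO and 6 rose and 4 fell in YKTH mice with no filter. Mcm10, a replication initiation factor, had 19, 18.9 and 18.6 TPM in WT C57BL/6 and 2.87, 2.65 and 3.74 TPM in YAP1 KO mice, and 15.3, 15.3 and 25.2 TPM in WT mixed and 5.99, 1.98 and 2.8 TPM in YKTH mice, and fell by 2.59 and 2.43 (limma adjusted p = 8.5e-06 and 0.00064). Thymidine kinase (Tk1) fell by 1.94 and 1.70 (limma adjusted p = 3.4e-05 and 8.4e-05), from 40.9 to 59.3 TPM over the WT to 13.6 to 19.3 TPM over the mutant mice, while the thymidylate synthase gene Tyms did not pass. Of the 10 CDK inhibitors and retinoblastoma genes, 2 rose in YAP1 KO mice (4 of 8 with the filter), and 4 rose and 1 fell in YKTH mice, with no filter. Cdkn1a, the gene of the p21 inhibitor, had 1.55, 0.702 and 0.875 TPM beside 28.9, 121 and 33.5 TPM in YAP1 KO mice and 1, 0.902 and 2.37 TPM beside 18.4, 22.6 and 30.6 TPM in YKTH mice. It rose by 4.37 and 3.13 (limma adjusted p = 0.00048 and 0.00012), more than any of the 42 members. Of the 17 E2F, DREAM and MuvB regulators 2 rose and 3 fell, and 3 rose and 2 fell, where Myc rose by 2.15 and 1.68 (limma adjusted p = 0.0087 and 0.0015). Of 15 other G1/S kinases and phosphatases above 0, 3 rose and 2 fell in each model.

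Markers of other cell types moved in the same livers, and their part in the rise of the cell cycle genes was not tested. The marker counts come from the filtered fit. There 18.8% of all genes tested rose and 18% fell in YAP1 KO mice, and 19.2% rose and 19% fell in YKTH mice. Of 12 Kupffer cell and macrophage genes, 10 rose and 1 fell in each model (Cd163 fell), with a summed level of 417 to 537 TPM in WT C57BL/6 and 1126 to 1608 TPM in YAP1 KO, 363 to 741 TPM in WT mixed and 1619 to 1720 TPM in YKTH mice. Of 10 monocyte and neutrophil genes, 8 of 8 tested rose in YAP1 KO and 4 of 7 tested in YKTH mice (7 and 5 with no filter). Their sums were 96 to 112 against 400 to 561 TPM and 72.6 to 169 against 306 to 402 TPM. Of 10 stellate cell and fibroblast genes 6 rose in each model (146 to 171 against 446 to 584 TPM, and 129 to 164 against 370 to 470 TPM). Of 10 biliary genes 7 were tested in each model and 4 rose (39.3 to 67 against 367 to 789 TPM, and 54.8 to 73.2 against 150 to 253 TPM). In addition 1 stellate cell gene fell in YAP1 KO and 1 biliary gene in YKTH mice. For these 4 lists the mutant and WT ranges did not overlap. By CK19 staining the authors found no bile ducts within the adult livers of either model. The biliary sums are thus levels of marker RNA and do not count duct cells. The 12 lymphocyte genes summed to 12.8 to 16.9 against 15.5 to 28.4 TPM and 12 to 16.1 against 19.2 to 21 TPM. Of them, 1 of 4 tested was called higher in YAP1 KO and 1 of 5 tested in YKTH mice. Erythroid precursor genes overlapped (1078 to 2231 against 1976 to 2203 TPM, and 907 to 942 against 875 to 2757 TPM). Of the 9 tested in each model, 1 was higher and 1 lower in YAP1 KO and 1 was lower in YKTH mice. Endothelial genes overlapped as well (94.6 to 102 against 95.1 to 143 TPM, and 122 to 131 against 119 to 155 TPM), with 1 higher and 2 lower, and 2 higher and 2 lower, of 10. The hepatocyte genes summed to 101400 to 113000 TPM in WT C57BL/6 and 79280 to 88110 TPM in YAP1 KO, and to 92660 to 115300 TPM in WT mixed and 75990 to 91830 TPM in YKTH mice, with 3 of 9 lower in each model, so that liver markers were present in all 12 libraries. No marker of any list was at 0 in all 12, and those listed at 0 in at least 1 included Ly6g, Retnlg, Cd79a, Ncr1, Gata1 and Cftr.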

How the data were processed

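RNA of 12 whole livers was sequenced. Using CLC Genomics Workbench and the GRCm38.p6 build, the authors aligned the reads, and deposited 2 tables with a TPM value for every gene and mouse beside the fold changes, p-values and false discovery rates of their own edgeR comparisons, which were not used. TPM columns without a sample numbered 0. TPM keeps no record of depth, so precision rests on the spread between 3 mice per group, and 0 pairs of libraries were identical. Libraries were scaled by an unweighted trimmed mean of log ratios, dropping 30% of the ratios and 5% of the mean levels from either end, and log2(value + 1) was fitted with limma 3.58.1 in R 4.3.3 (trend, two-sided, Benjamini-Hochberg over all genes, threshold 0.05). A gene entered the fit when 3 or more libraries held 1 TPM or more. Each model used its 6 libraries and the difference between models all 12. Single genes were compared by exact permutation (scipy 1.17.1), the fits were tested on simulated data with 200 changed genes, and figures were drawn with matplotlib 3.10.9.

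The members and lists were chosen with earlier results of these data known. Values per mouse were given for members past the threshold or with a mean of 1 TPM or more in a group, and at most the 3 largest rises and 3 largest falls per model were named from the other cell cycle lists. Genes of the overlap check, Tyms as a contrast to Tk1 and markers at 0 were named after their values were seen. Alternatives were a pseudocount of 0.1, no filter, a mean of 1 TPM or more, no scaling, quantile normalization, robust shrinkage, all 12 libraries in 1 fit and each mouse left out. Leaving out a mouse with no filter was added after seeing the data. Promoters came from RefSeq (GRCm38.p6). The marker genes Tf and Ahsp and the mitosis gene H2afz were not found under these names. Some items are not reported here.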

Additional observations from a re-analysis of the deposited data

How the results depend on the processing

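Over 7 alternative settings with all mice, 16 of the 19 members called in YAP1 KO and 14 of the 22 called in YKTH mice were called under every setting in which they were tested, and no member that passed changed its direction. Calls were lost under at least 1 of these settings for Ccne1, Mcm7 and Anln in YAP1 KO mice and for Ccnd1, Ccnd3, Mcm2, Mcm7, Gins2, Top2a, Birc5 and Anln in YKTH mice. Members higher in YAP1 KO mice ran from 16 (quantile) to 27 (no scaling) in place of 19, with 3 to 8 of the 11 replication genes, and in YKTH mice from 13 (quantile) to 22 (no scaling) in place of 19, with 1 to 4. Members lower in YAP1 KO mice were 1 under quantile normalization and with all 12 libraries in 1 fit in place of 0, and members lower in YKTH mice were 1 without scaling and 4 under quantile normalization in place of 3. The cause was not tested. For all genes, the difference between the models passed for 3 with a pseudocount of 0.1 and 2 with no filter in place of 8, and the WT groups differed for 15 with no filter in place of 24.

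With 1 mouse left out in turn, members higher ran from 7 to 17 in YAP1 KO and from 4 to 20 in YKTH mice with the filter, from 12 to 24 and from 12 to 21 with no filter, and members lower from 0 to 1 and from 1 to 2. Genes called ran from 3110 to 3965 in YAP1 KO and from 2833 (without YKTH replicate LM251) to 4067 in YKTH mice, from 3 to 20 for the difference between the models and from 8 to 28 between the WT groups. TPM does not show depth, and the values of the mitosis genes in WT livers, mostly under 1 TPM, rest on few reads of unknown number. No paired analysis was possible because the labels give each mouse a number of its own.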
